A study of Mus musculus with 12 samples.

Results

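Mki67, Apc, Ptprz1, Prrc2c and Ankrd11 are 5 protein-coding genes whose exons held several clusters of reads each in a PAR-CLIP experiment on Smchd1 in mouse neural stem cells. They were chosen by a measured value, the number of deposited clusters with a midpoint in an exon of the gene on either strand. Their spans held 44 of the 4762 clusters of the list (0.924%) and 3521 of its 553902 reads (0.636%). Of 21938 nuclear protein-coding genes, 338 (1.54%) had at least 1 exonic cluster and 6 (0.0273%) had at least 5, the number of the member with the fewest. The counts that chose the genes are given as a description, with no test. Just inside the choice was Ankrd11, with 5 clusters and 435 reads, and just outside were Scd2, also with 5 clusters but 129 reads, and Hsp90b1, with 4 clusters and 256 reads.

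The cells were female C57BL/6 neural stem cell lines derived from E14.5 embryos. In PAR-CLIP, RNA labelled with 4-thiouridine is joined by ultraviolet light to the protein that holds it, and the RNA recovered with that protein is sequenced. All 12 libraries came from cells given 100 µM 4-thiouridine for 24 hours. There were 4 libraries of Smchd1GFP/GFP cells, in which Smchd1, a chromatin protein of X inactivation, carries GFP, exposed to light of 365 nm at 0.15 J/cm2. Another 4 libraries were of the same genotype and titled as without crosslinking, although their treatment protocol also states irradiation, and 4 were of untagged Smchd1+/+ cells with the same irradiation. The list gives 1 read count for each cluster and none for a library, and which of the libraries it covers is not known. No group could therefore be set against another, no value has a replicate error, and neither the neural stem cell label nor recovery with Smchd1 was checked by these values.

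The 5 proteins have different roles. Ki-67, from Mki67, covers the surface of mitotic chromosomes and marks dividing cells. Apc is a scaffold of the complex that marks beta-catenin for destruction in the Wnt pathway, and Ptprz1 is a receptor phosphatase of radial glia that carries chondroitin sulfate and binds the growth factor pleiotrophin. Prrc2c is a large proline-rich RNA-associated protein, and Ankrd11 is an ankyrin repeat chromatin cofactor that works with histone deacetylases. Their messages share long coding exons.

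Most of the clusters shared their first bases, so these sequences are shown first. Of the 44 clusters, 36 began with AC (81.8%, exact Clopper-Pearson 95% interval 67.3 to 91.8), against 85.3% of the 375 exonic clusters of all other nuclear protein-coding genes. The bases just before the start were known from the annotated transcripts for 43 clusters. For 32 of them (74.4%, interval 58.8 to 86.5) the start lay in the middle of the palindrome GTAC, with GT before the first base of the cluster and AC as its first bases. The share in the other genes was 69.1%, over 333 clusters with known sequence. GTAC reads the same on both strands, so a single GTAC can begin a cluster rightward on one strand and leftward on the other. At 6 places in the 5 genes it did both. Whether a step of library preparation cuts at GTAC was not tested. Such a step would bear on the cluster starts, on the adjoining pairs and on the strand shares given here, so these are described as positions in the list and not as sites held by Smchd1. The windows, read from GENCODE M21 transcripts on GRCm38 (mm10) and shown on the strand of the gene, are the 5 of these 6 that lie in Mki67, Ptprz1 and Ankrd11, with GTAC in capitals.

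Mki67, exon 12, chr7:135697424-135697453, minus strand: agaaccccagcaaGTACaaagagacgctcc
Ptprz1, exon 8, chr6:22973088-22973117, plus strand: tccgagaacaacaGTACaagttttccaggc
Ptprz1, exon 9, chr6:22986236-22986265, plus strand: agtttgcagttctGTACcagccactggcgg
Ankrd11, exon 9, chr8:122893721-122893750, minus strand: aggagaagagctgGTACattgcagacattt
Ankrd11, exon 9, chr8:122893973-122894002, minus strand: gcagggcagacaaGTACaaagagaagtcca

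In each of these windows the cluster on the strand of the gene began at the A of GTAC, and the cluster of the opposite strand began at the complement of its T. The members of a pair therefore adjoined with no base between or shared. The cluster with the most reads of all 44 was in Prrc2c and also began at GTAC, here without a partner on the other side.

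Prrc2c, exon 29, chr1:162679985-162680014, minus strand: gtggtcctctctgGTACagctatccacaac

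Starts away from GTAC were seen for 11 clusters with 577 reads, and 10 of these 11 lay opposite to the gene. The nearest exonic GTAC was 3 to 732 bases from these starts. Of the 11, 3 still began with AC. The 2 of these in Mki67 are shown with the first bases of the cluster in capitals, on the strand of the cluster.

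Mki67, exon 12, 31 reads, chr7:135696764-135696793, plus strand: caaagacatctttgcACtttcctcaacagt
Mki67, exon 8, 59 reads, chr7:135704697-135704726, minus strand: cgcagatcaggcaggACttccagtggaagc

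Mki67 had 6 of the 11 clusters that began elsewhere, Apc and Ptprz1 had 2 each, Prrc2c had 1 and Ankrd11 had 0. Clusters with a start elsewhere had a median of 44 reads, against 76 for clusters that began at GTAC. Strand differed as well: 10 of the 11 were opposite to the gene, against 22 of the 32 that began at GTAC. Opposite clusters had a median of 38 reads and clusters on the strand of the gene 139. Start and strand are therefore not told apart by these medians. Clusters were 81 to 210 bases long with a median of 85, and 39 of 44 were 83 to 86 bases. Only 1 cluster, in Apc exon 3, had GTAC inside it.

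GTAC itself was not rare in these exons. The merged exons held 152 GTAC, 69 of them in coding sequence, and 26 had a cluster beginning on at least 1 side. Counted by side, 32 of 304 were used (10.5%, interval 7.31 to 14.53), against 0.0579% of 411062 sides in the exons of all other nuclear protein-coding genes. The used sides are the clusters that chose the members, and most of the other genes had no exonic cluster, so the choice fixed this difference and nothing is read from it. Within the 5 genes the share ran from 7.14% of sides in Ankrd11 and 7.69% in Prrc2c through 10.5% in Apc and 12.1% in Ptprz1 to 27.3% in Mki67, where exonic GTAC numbered 11 against 29 to 39 in the others.

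All 44 clusters were exonic and all were in coding sequence. Exons were the smaller part of each gene, from 8.03% of the span of Ptprz1 to 37.9% in Mki67. Introns had 0 clusters, which allows an intronic share of up to 6.82% of clusters by 3 counts of 44 and of up to 8.04% by the exact interval, both covering counting error only. In the spans of the other nuclear protein-coding genes 19.8% of 1891 clusters were exonic, a share that includes genes with intronic clusters only. Of the 333 other genes with an exonic cluster, 49 (14.7%) also had an intronic one, so a lack of intronic clusters was common among genes with exonic ones. Untranslated exons of the 5 genes also had 0 clusters, although coding sequence was 58.1% of their merged exonic length. In the other genes 69.1% of exonic clusters were coding, and coding sequence was 41.7% of the exonic length of the 333 genes with such a cluster. The exonic clusters chose the genes, so their share is a description, and no test was made of it or of the coding share. Sequence in introns was not used here, so the number of GTAC there is not known. The edges of exons were not boundaries for the clusters. In Apc, Ptprz1 and Prrc2c, 1 cluster each ran 31, 25 and 19 bases past the merged annotated exons. Another Ptprz1 cluster, of 191 reads, ended at position 22986335 within the merged exons. In the transcript with the longest coding sequence, exon 9 ends at 22986315, before the end of that cluster. The listed sequences of the 41 clusters within the merged exons were equal to the transcript on their strand at every base. The list holds 1 sequence per cluster and none of single reads, so this says nothing of base changes in reads.

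**Figure D1:**
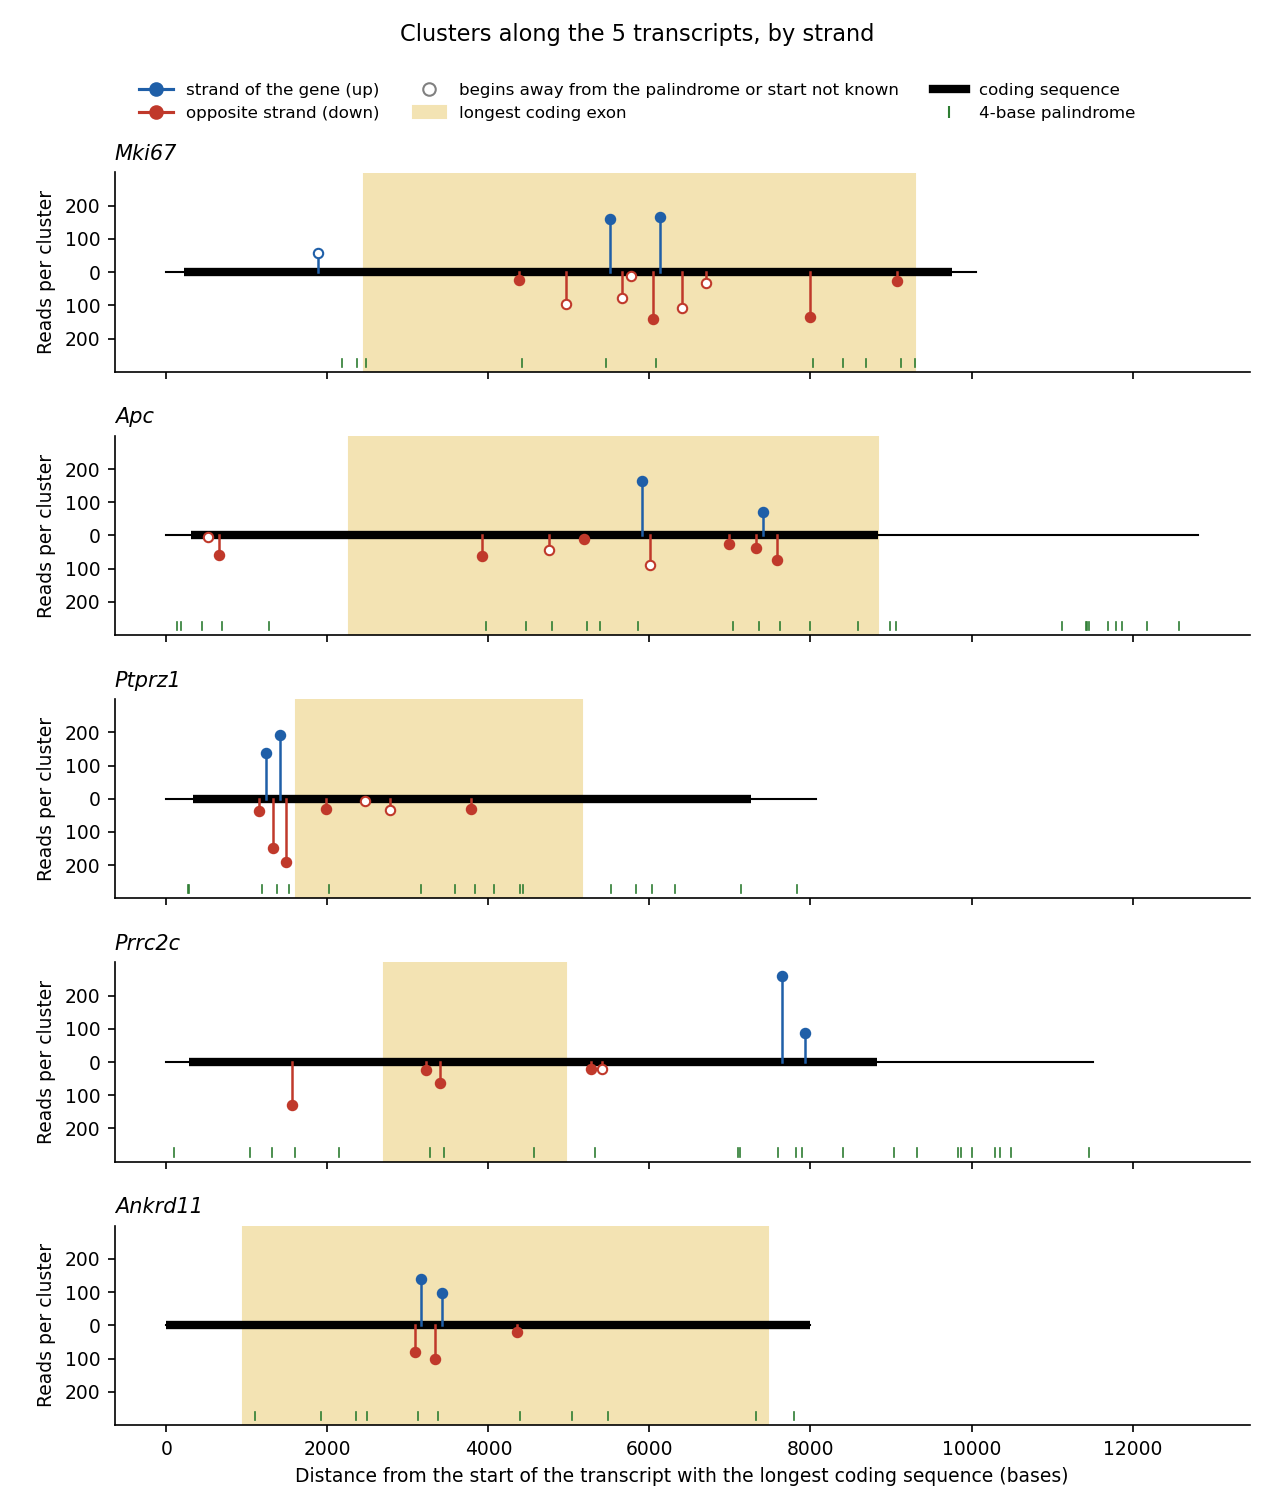
Each panel plots 1 gene along the transcript with the longest coding sequence: the x axis is the distance from its start in bases, the y axis is reads per cluster, up for the strand of the gene and down for the opposite strand, and open points begin away from the palindrome GTAC or have an unknown start. The clusters of Mki67, Apc and Ankrd11 sit mostly in the shaded longest coding exon, those of Ptprz1 with the most reads sit before it, and those of Prrc2c are spread.

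The longest coding exon of each gene was examined next. Together these exons held 31 of the 44 clusters (70.5%, interval 54.8 to 83.2) and 2176 of 3521 reads (61.8%). Their share of merged exonic length was 35.2%, and of merged coding length 60.6%. The interval of the cluster share lies above the former and includes the latter. Cluster density was 1.21 per kb in these exons and 0.777 per kb in the rest of the coding sequence of the 5 genes. Over all other exonic sequence, untranslated parts included, it was 0.275 per kb. In the other genes 24.4% of exonic clusters were in the longest coding exon of the gene (92 of 377, where a cluster in exons of several genes counts for each). Weighting each gene by its clusters, that exon made up 14.6% of exonic length in the other genes and 40.5% in the 5 genes. Among 567 genes whose longest coding exon was at least as long as that of Prrc2c, 2253 bases, 33 (5.82%) had a cluster in it and 9 had 2 or more. These include the 5 chosen genes. Without them the counts were 28 of 562 (4.98%) and 4. Whether exon length goes with clusters was not tested.

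In Mki67 (ENSMUSG00000031004.8, chromosome 7, 135689784 to 135716361, minus strand, GRCm38), exon 12 of 6836 bases was 67.9% of exonic and 71.7% of coding length. It encodes the tandem Ki-67 repeats. It held 11 of 12 clusters (91.7%, interval 61.5 to 99.8) and 975 of 1034 reads (94.3%). The interval includes both length shares, so a concentration beyond length was not detectable with 12 clusters. In exon 12, 2 clusters of 165 and 160 reads had the strand of Mki67 and 9 with 650 reads lay opposite, the latter with 12 to 141 reads each. They covered codons 1371 to 2966 of 3177. The cluster outside it was in exon 8 (253 bases) with 59 reads on the strand of the gene. Of the 11 GTAC in its exons, 8 were in exon 12, and 5 of those 8 had a cluster.

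The repeats of Ki-67 resemble each other, and 5 Mki67 clusters with 468 reads held a word of 30 bases found more than once in the Mki67 transcript. These were the clusters with 165, 141, 109, 31 and 22 reads. How reads with several possible places were assigned was not given in the sources used here. For these 5 the place within exon 12 is therefore less certain. None of the 12 shared such a word with a transcript of another gene.

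Apc (ENSMUSG00000005871.15, chromosome 18, 34220924 to 34322552, plus strand) showed a similar layout. Exon 16, its last, has 6574 coding bases, which include the beta-catenin binding repeats, and was 40.8% of exonic and 74.1% of coding length. It held 9 of 11 clusters (81.8%, interval 48.2 to 97.7) and 579 of 643 reads (90.0%), all before the stop codon, although the whole exon of 10548 bases continues into the untranslated part. The interval lies above the exonic length share and includes the coding length share. All 11 clusters were coding, and coding sequence was 55.1% of exonic length, so the exonic share alone does not measure concentration in this exon. On the strand of the gene the 2 clusters had 165 and 72 reads, over codons 1852 to 1879 and 2353 to 2381. The 7 opposite clusters in exon 16 had 342 reads together, the highest 88 in a cluster of 210 bases that overlapped the one of 165 reads on the other strand. This is the only overlap between clusters in the 5 genes. Exons 3 and 4 had 1 opposite cluster each, with 5 and 59 reads.

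Ankrd11 (ENSMUSG00000035569.17, chromosome 8, 122883822 to 123042277, minus strand) had all 5 clusters and 435 reads in exon 9 (6518 bases, 39.3% of exonic and 76.6% of coding length). With 5 clusters the share of 100% had an interval of 47.8 to 100, which includes the coding length share. The first pair of adjoining clusters had 97 reads on the strand of the gene and 101 opposite, and the second had 139 and 79. The pairs lay over codons 1014 to 1154 of 2664, and the last cluster, with 19 opposite reads, lay at codons 1439 to 1467. Introns of the annotated genes Gm45894 and Gm20388 lie at these positions on the strand opposite to Ankrd11, and exons of neither do.

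Ptprz1 (ENSMUSG00000068748.7, chromosome 6, 22875502 to 23052916, plus strand) had the reverse distribution of reads. Exon 12 (3549 coding bases when merged over transcripts, 24.9% of exonic and 51.2% of coding length), which encodes much of the extracellular part with the chondroitin sulfate sites, held 4 of 9 clusters (44.4%, interval 13.7 to 78.8) but 101 of 806 reads (12.5%). These 4 had 30, 6, 33 and 32 reads and all lay opposite to the gene. The 5 clusters of exons 8, 9 and 10, which are 151, 185 and 127 bases long, held 705 reads. Exon 9 had 191 reads on the strand of the gene and 149 opposite, exon 8 had 138 and 38, and exon 10 had 189, all opposite. The clusters of these 3 exons covered codons 262 to 400 of 2312, and each of the 5 began at GTAC.

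Prrc2c (ENSMUSG00000040225.15, chromosome 1, 162670725 to 162740556, minus strand) was the most dispersed, with 7 clusters in 6 exons. Its longest coding exon, exon 16 of 2253 bases (14.0% of exonic and 26.2% of coding length), held 2 clusters (28.6%, interval 3.67 to 71.0) and 86 of 603 reads (14.3%), all opposite. Exon 12 had 128 opposite reads, and exons 18 and 19 had 21 each, also opposite. The clusters on the strand of the gene were near the 3′ end of the coding sequence: 260 reads in exon 29 (232 bases, codons 2440 to 2468) and 87 in exon 31 (219 bases, codons 2536 to 2564), of 2846 codons. Both share words of 30 bases with Gm4972, a processed pseudogene. For the cluster of 260 reads, 55 of its 56 words were found there, and for that of 87 reads 37 of 56. Part of the reads on the strand of Prrc2c could therefore have come from either locus, which was not tested. No cluster was listed at Gm4972 with a shared word. The opposite clusters of Prrc2c had no such word in another gene.

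**Figure D2:**
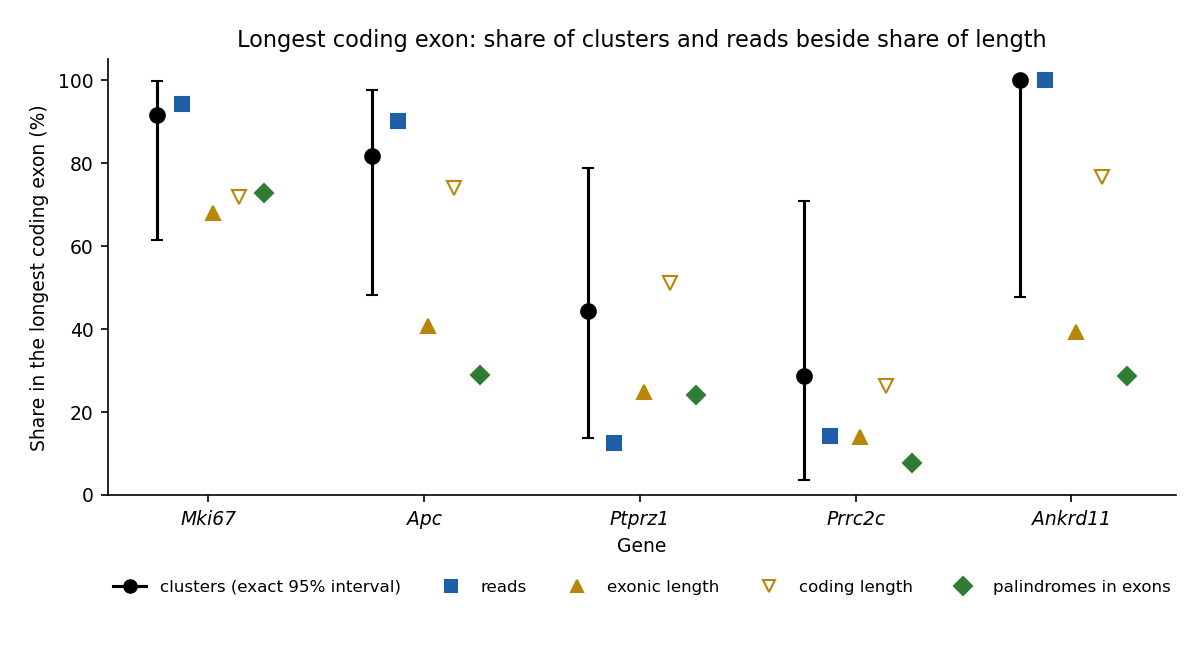
For each gene on the x axis, points give the share in percent in its longest coding exon of clusters (black, with exact 95% intervals), reads, exonic length, coding length and exonic GTAC palindromes. Clusters lie above the exonic length share in all 5 genes, while the coding length share falls within every interval, and reads fall to 12.5% and 14.3% in Ptprz1 and Prrc2c.

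The positions of GTAC gave another measure of what these exons offer. Of 69 GTAC in coding sequence, 39 (56.5%) were in the longest coding exons, beside 70.5% of clusters. The interval of the cluster share, 54.8 to 83.2, includes this value. The cluster share covers all 44 clusters, also those that began away from GTAC. Of all 152 in exons, those 39 were 25.7%. By gene the longest coding exon had 72.7% of exonic GTAC in Mki67, 28.9% in Apc, 28.6% in Ankrd11, 24.1% in Ptprz1 and 7.69% in Prrc2c.

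By strand, 33 of the 44 clusters (75.0%, interval 59.7 to 86.8) lay opposite to the gene and 11 lay on its strand. The other nuclear protein-coding genes had 64.8% opposite (243 of 375), a value within that interval. The interval treats clusters as independent, although clusters of the same gene are not replicates. Each of the 6 adjoining pairs also holds a cluster of either strand. The interval therefore covers counting error only and is no test of the strand share. Opposite clusters outnumbered those of the gene strand in each of the 5 genes: 9 against 3 in Mki67, 9 against 2 in Apc, 7 against 2 in Ptprz1, 5 against 2 in Prrc2c and 3 against 2 in Ankrd11. The exact interval of the opposite share includes an even split in each gene, for example 48.2 to 97.7% in Apc and 14.7 to 94.7% in Ankrd11. Among clusters that began at GTAC the opposite share was 68.8% (22 of 32). The labels cite a published PAR-CLIP protocol, in which a different adapter is ligated to each end of the RNA so that its strand is known. How the strand of a cluster was assigned was not given in the sources used here, and whether opposite reads came from RNA of that strand was not tested.

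Reads were less uneven than clusters. The 33 opposite clusters had 1988 reads (56.5%) and the 11 of the gene strand had 1533. In the other genes 70.5% of exonic reads were opposite, a share that includes a single cluster of 1410 reads. Clusters of the gene strand had 59 to 260 reads with a median of 139, and opposite clusters had 5 to 189 with a median of 38. The ranges overlap, and 3 opposite clusters reached the gene strand median. In the other genes the medians were 14 reads for 132 gene strand clusters and 17 for 243 opposite ones. The order was the reverse there, but 305 of those genes had a single exonic cluster. Among the other genes with the most exonic clusters, Hsp90b1 had 193 reads in 1 gene strand cluster and 63 in 3 opposite ones. Scd2 had 71 in 2 and 58 in 3, Smc1a 108 in 1 and 111 in 3, and Dst 57 in 1 and 106 in 3. Mean reads per cluster were therefore higher on the gene strand there too, except in Akap12, which had opposite clusters only. No test of the strand difference was made, since clusters of 1 gene are not replicates. Only 4 of the 44 clusters, all of them opposite, were below the median of the whole list, 14 reads.

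In each of the 5 genes the cluster with the most reads was on the strand of the gene. It had 165 reads in Mki67, where the highest opposite cluster had 141, and 165 in Apc, where it had 88. In Ptprz1 these values were 191 and 189, in Prrc2c 260 and 128, and in Ankrd11 139 and 101. The values of Ptprz1 and of Mki67 are not separated by counting error: the share of the gene strand in the sum of both clusters was 50.3% (exact interval 45.1 to 55.4) in Ptprz1 and 53.9% (48.2 to 59.6) in Mki67. In the other 3 genes this interval lay above 50%. It treats reads as independent, although PCR copies cannot be recognised, and each cluster was picked as the highest of its strand. It is therefore no test of a strand difference. The cluster in Prrc2c is the one whose words recur in Gm4972.

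**Figure D3:**
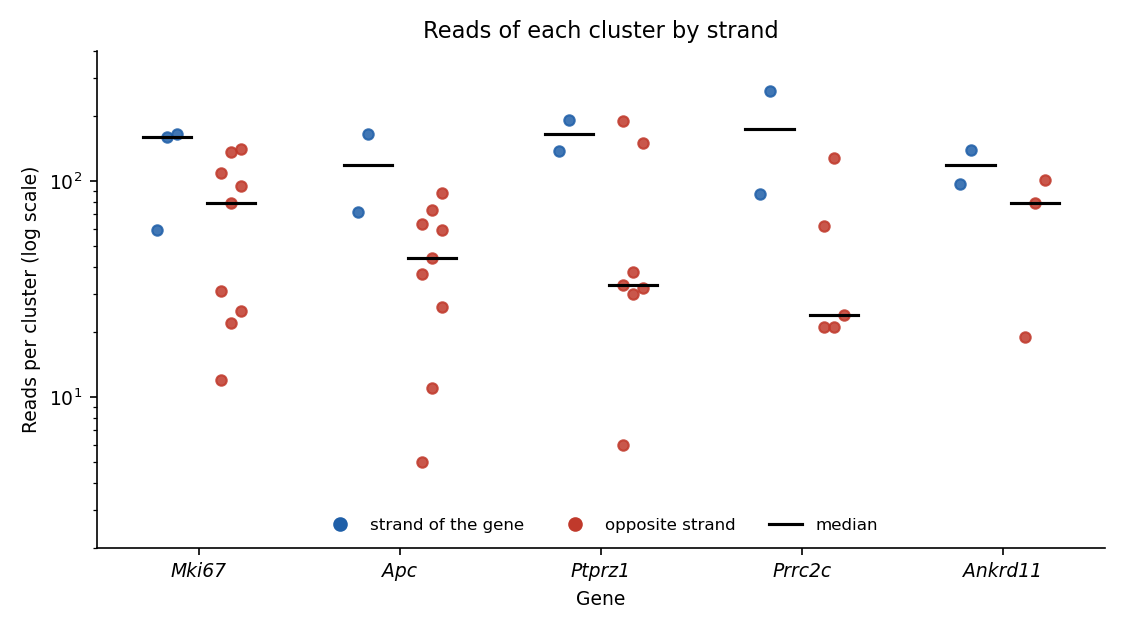
Points are single clusters, with reads on a logarithmic y axis, by gene on the x axis and by strand, and black bars are medians. The median of the gene strand is above that of the opposite strand in each of the 5 genes, while the points of the strands overlap in Mki67, Apc, Ptprz1, Prrc2c and Ankrd11. The gene strand median rests on 3 clusters in Mki67 and on 2 in each other gene, and both of Prrc2c share words with Gm4972.

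The 6 adjoining pairs compare the strands at the same GTAC. On the strand of the gene and opposite to it, the reads were 165 and 141 in Mki67, 72 and 37 in Apc exon 16, 138 and 38 in Ptprz1 exon 8, 191 and 149 in Ptprz1 exon 9, and 97 and 101, then 139 and 79, in Ankrd11. The gene strand was higher in 5 of 6, by a ratio of 1.17 to 3.63, and the ratio of the remaining pair was 0.96. The exact interval of the gene strand share included an even split for the Mki67 pair and for the Ankrd11 pair of 97 and 101 reads. It lay above an even split for the other 4. These intervals treat reads as independent, although PCR copies of a molecule cannot be recognised, so they cover counting error alone and do not test the strands. Exons of all other nuclear protein-coding genes held 4 such pairs, named here after their values were seen, with reads on the gene strand and opposite of 57 and 39 in Dst, 60 and 46 in Ncor1, 63 and 28 in Srrm2, and 45 and 44 in Sall3. Of these 4, the interval lay above an even split in Srrm2 alone. Prrc2c had none.

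**Figure D4:**
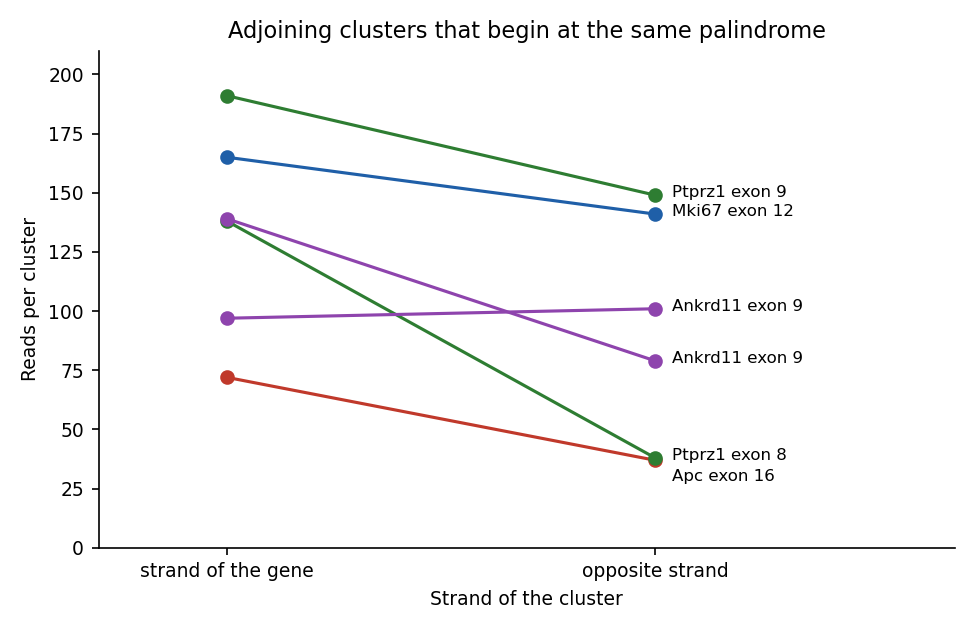
Lines join the reads (y axis) of the cluster on the strand of the gene and of the cluster on the opposite strand (x axis) that begin at the same GTAC palindrome, for the 6 such places. The gene strand is higher in 5 lines, of which that of Mki67 (165 and 141 reads) is within counting error of an even split, as is the Ankrd11 line of 97 and 101 reads.

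Base composition differed by strand as well. Opposite clusters had a median of 32.1% T and clusters of the gene strand 21.2%, with a range over all 44 of 12.9% to 43.0%. T in an opposite cluster pairs with A in the message, and the base content of the exons and of the clusters of other genes was not compared. T stands for the uridine that 4-thiouridine replaces, and the list has no count of T-to-C changes. None of the 44 clusters shared a word of 30 bases with a cluster at another locus (exact interval 0 to 8.04%), against 9.07% of exonic clusters of the other genes.

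The genes most like these, taken as the other nuclear protein-coding genes with the most exonic clusters, were Scd2, Hsp90b1, Smc1a, Dst and Akap12. Scd2, a fatty acid desaturase, had 5 clusters with 129 reads, 3 of them opposite. Hsp90b1, a chaperone of the endoplasmic reticulum, had 4 with 256 reads, and Smc1a, a cohesin subunit, had 4 with 219, each with 3 opposite. Dst, a cytoskeletal linker, had 4 with 163 reads and 0 of them in its longest coding exon of 5292 bases. Akap12, a kinase anchoring protein, had 4 with 81 reads, all opposite and all in its longest coding exon of 4787 bases.

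Other genes of the pathways were counted by the lists, beside the 1.54% of all nuclear protein-coding genes with an exonic cluster. Of 25 further cell division genes 1 had an exonic cluster, Ccnb1, a mitotic cyclin, with 12 opposite reads, and of 22 further genes of Wnt and beta-catenin signalling 0 had one. Among 14 ligands, partners and matrix genes around Ptprz1, Tnc, an extracellular matrix glycoprotein, had 4 clusters with 78 reads, 3 of them opposite. Its ligand Ptn had 1 with 67, also opposite. Of 16 further PRRC2, translation and granule genes 4 had a cluster, each opposite: Eif3a, an initiation factor subunit, with 91 reads in 2, Pabpc1, the poly(A)-binding protein, with 47, Eif4g3 with 27, and Ybx1 with 19. Of 13 cofactor and acetylation genes beside Ankrd11, 3 had one, among them the corepressor Ncor1 with 106 reads in 2 clusters and the acetyltransferase Crebbp with 97 in 2. Except for the Wnt list, these shares are above 1.54%, but each rests on 1 to 4 genes, and that of cell division on Ccnb1 alone. No interval or test was computed for them, so no list is read as raised. In the background, length and abundance of the messages are not matched.

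Cell type markers were counted in the same way. Of 10 neural stem cell markers 1 had an exonic cluster, Slc1a3 with 15 reads. Of 6 neuron markers Map2 had 72 reads in 2 clusters, and of 5 astrocyte markers Gja1 had 7 in 1. Oligodendrocyte and microglia or blood markers had 0 of 5 each. The list gives no level of expression, so these counts do not check the identity of the cells.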

How the data were processed

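PAR-CLIP was made from 12 libraries in 3 groups of 4. Per the submitters' processing notes, bcl2fastq, TopHat2 2.1.0 and build mm10 were used. The authors deposited 1 list of clusters with position, strand, sequence and a read count per cluster, not normalized and with no column per library. The cluster caller, its thresholds and the libraries used were not given in the sources used here. For this reason the planned comparison of groups was not run, and depth per library is not known. The lowest count listed is 2.

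Clusters were placed at their midpoint in exons merged over all GENCODE M21 transcripts (GRCm38, the assembly of mm10), on either strand. Exon and codon numbers follow the transcript with the longest coding sequence. The longest coding exon is the longest interval of merged coding sequence. Positions are 1-based. GTAC was searched in annotated transcripts, leaving out matches across exon junctions, and both strands are covered since it is a palindrome. Words of 30 bases were compared on both strands with the other clusters and with all annotated transcripts. Shares have exact Clopper-Pearson 95% intervals (scipy 1.17.1), and these intervals and the limits at 0 speak to counting error alone, because PCR copies of a molecule cannot be recognised. Intervals of cluster shares also treat clusters as independent, although clusters of the same gene, and those that adjoin at the same GTAC, are not replicates. No p-value was computed. Placement was tested on simulated data.

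The members and lists were chosen with earlier results of these data known. Genes named beside the members were up to 5 others with the most exonic clusters and up to 3 per list, ties by reads. Ybx1 was named in addition, after its value was seen, to complete a count. One gene that this rule selects is not reported here.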

Additional observations from a re-analysis of the deposited data

How the results depend on the processing

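The number of exonic clusters in the 5 genes, 44, was 40 to 44 under 6 alternatives: exons of basic protein-coding transcripts or of the transcript with the longest coding sequence, placement by any overlap, clusters with at least the median reads, clusters sharing no word with another locus, and overlapping clusters as 1 locus (43). Under these the share in the longest coding exon was 69.8% to 70.5%. With clusters on the strand of the gene only it was 54.5% (6 of 11), and with opposite clusters only 75.8%. The opposite share of clusters was 72.5% to 75.0%, and the share that begins with AC 81.8% to 87.2%. Without the cluster with the most reads of each gene, the share of reads in the longest coding exon moved from 61.8% to 65.6% and the opposite share of reads from 56.5% to 76.4%, since those 5 clusters lie on the strand of the gene. For single genes, 113 of 125 values stayed within the 95% interval of the reported share or, for counts, within 1.5 times. Many of these values could not move: none of the 44 clusters shared a word with another locus, so that filter removed no cluster. The exon sets and the placement by any overlap also gave the main values exactly. The 113 is therefore not a measure of robustness. No paired analysis was possible because the deposited clusters carry a single read count that is not split by library, so the scaling, filtering and leave-one-out alternatives for libraries were not run either. With 5 to 12 clusters per gene, intervals are wide.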
